A study of Mus musculus with 10 samples.

Results

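Ndufs5 and Hdac1 are 2 genes that lie on opposite sides of Ago4 on mouse chromosome 4. They were taken from the 4 gene tables of a study of male germ cells that lack or carry Ago4, as rows whose symbol is Ndufs5 or Hdac1 and whose locus lies within 5 Mb of Eif2c4, the older symbol under which the tables list Ago4. Both were chosen because they were higher in the second condition of all 4 tables, so their ratios are given below as a description, without a test. They are 2 of 36806 genes in each table and 2 of 256 genes in the 5 Mb on each side of Eif2c4. Of those 256 genes, 94 had at least 1 FPKM (fragments per kilobase of transcript, scaled to the fragments mapped in the library) in 1 of the conditions of every table, and both members are among them.

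NDUFS5 is an accessory subunit of respiratory complex I, the NADH dehydrogenase that feeds electrons into the mitochondrial respiratory chain and pumps protons. It is encoded in the nucleus and sits in the membrane arm, on the side of the intermembrane space. HDAC1 is a class I histone deacetylase that works with its close relative HDAC2 as the catalytic part of the SIN3, NuRD and CoREST complexes, which remove acetyl groups from histones. AGO4 belongs to the Argonautes, proteins that are loaded with small RNAs to find their target transcripts.

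The study measured mRNA by RNA sequencing in Ago4-/- and Ago4+/+ mice of the C57BL/6 strain, in 8 libraries with 1 library per genotype and stage: whole testis at day 3, whole testis at day 8, leptotene/zygotene cells at day 70 and pachytene cells at day 70. Leptotene, zygotene and pachytene follow each other in the prophase of the first meiotic division. The 2 small RNA libraries of pachytene cells, also Ago4-/- and Ago4+/+, were not analysed here. The labels do not say which part of Ago4 is deleted.

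The 4 tables compare a second with a first condition in material called day 3, pre-meiotic, leptotene/zygotene and pachytene. No source used here says which condition is Ago4-/-, none was inferred from any level, and nothing says that the order of the genotypes is the same in all 4 tables. The material of the pre-meiotic table is known from its name alone, and no age is attached to it. With 1 value per condition there is no replicate check. The error given with each log2 ratio is the implied error, obtained from the authors' deposited table by dividing the log2 fold by its test statistic and dropping the sign, which covers counting and modelling of those libraries and not the spread between mice. Depth is unknown because no counts were used, and the tables were normalized separately. In whole testis and in mixed preparations, fewer cells of a type and less RNA per cell cannot be told apart.

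The libraries called leptotene/zygotene went against their label in part. Their 6 spermatid markers summed to 54083 FPKM in the second and 45806 FPKM in the first condition, against 9016 and 6933 FPKM in the pachytene table. Their 6 leptotene/zygotene markers summed to 107 FPKM in the second and 128 FPKM in the first condition, below the 304 and 312 FPKM of the pachytene table. The results of that table are therefore given beside those of the other 3 throughout.

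The promoter of Ndufs5 is shown because it is the only RefSeq start region of the pair in the promoter table used here, which matched 1 of the 2 genes. It runs from 250 bases before to 50 bases after the annotated start, on the minus strand of GRCm38.p6, chr4:123718137-123718436. The capitals mark the only match to the NRF1 motif GCGCANGCGC on either strand. NRF1 is a transcription factor known for driving many nuclear genes of the respiratory chain.

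Ndufs5 promoter: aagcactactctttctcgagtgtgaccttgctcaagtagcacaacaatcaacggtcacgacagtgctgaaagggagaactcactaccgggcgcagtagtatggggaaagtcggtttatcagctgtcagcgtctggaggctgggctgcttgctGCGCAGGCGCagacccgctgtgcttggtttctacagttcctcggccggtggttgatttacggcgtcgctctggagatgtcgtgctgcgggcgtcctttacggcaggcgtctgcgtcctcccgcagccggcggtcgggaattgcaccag

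The match began 98 bases before the start. This motif occurred in 1512 of 32851 RefSeq promoters of the same length, or 4.60%. No match to the TATA box TATAAA, the CCAAT box CCAAT or the GC box GGGCGG was found on either strand of this window, and 13.6%, 37.4% and 35.7% of all promoters held 1 or more of each. The window had a GC content of 59.0% and 25 CpG sites. The files hold no measurement of binding at this promoter.

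Ndufs5 (ENSMUSG00000028648) occupies chr4:123389953-123395445 in the tables, a span of 5493 bases whose build the tables do not name. The end nearer to Eif2c4 lies 2.77 Mb before it, and no other gene row overlaps the locus. At day 3, Ndufs5 stood at 142 FPKM in the second condition and 47.6 FPKM in the first. In the pre-meiotic table it stood at 76.7 FPKM in the second condition and 9.05 FPKM in the first. In the leptotene/zygotene table the values were 22.7 FPKM in the second condition and 4.55 FPKM in the first, and at pachytene they were 51.8 FPKM in the second condition and 8.86 FPKM in the first. In each table the second condition was thus the higher one, and at its lowest the second condition (22.7 FPKM) was below the first condition at day 3 (47.6 FPKM), a level set across tables that were normalized separately.

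The ratios of the conditions were taken with 0.1 FPKM added to each value. They were 2.98-fold at day 3, 8.39-fold in the pre-meiotic table, 4.90-fold in the leptotene/zygotene table and 5.80-fold at pachytene. On the log2 scale these are 1.57 (implied error 0.24), 3.07 (0.43), 2.29 (0.63) and 2.54 (0.41), where the errors come from the authors' deposited table. The pre-meiotic ratio exceeded the day 3 ratio by 1.49 (combined implied error 0.49), and the pachytene ratio exceeded it by 0.96 (0.47). The other 4 differences between tables were each at most 1.07 times their combined implied error.

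Hdac1 (ENSMUSG00000028800) occupies chr4:129193348-129219957 in the tables, a span of 26610 bases that begins 2.98 Mb after Eif2c4 and overlaps no other gene row. At day 3 it stood at 58.0 FPKM in the second condition and 37.4 FPKM in the first. In the pre-meiotic table it had 39.3 FPKM in the second condition and 18.9 FPKM in the first. The leptotene/zygotene table gave 36.8 FPKM in the second condition and 16.4 FPKM in the first, and at pachytene Hdac1 had 56.6 FPKM in the second condition and 23.3 FPKM in the first. The second condition was the higher one in each table. With 0.1 FPKM added to each value, it was so by 1.55-fold, 2.07-fold, 2.23-fold and 2.42-fold from day 3 to pachytene. The log2 ratios were 0.63 (implied error 0.16), 1.05 (0.22), 1.16 (0.23) and 1.27 (0.22), with errors from the authors' deposited table. The pachytene ratio exceeded that of day 3 by 0.64 (combined implied error 0.27), and the 3 ratios after day 3 lay within 0.22 of each other.

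**Figure D1:**
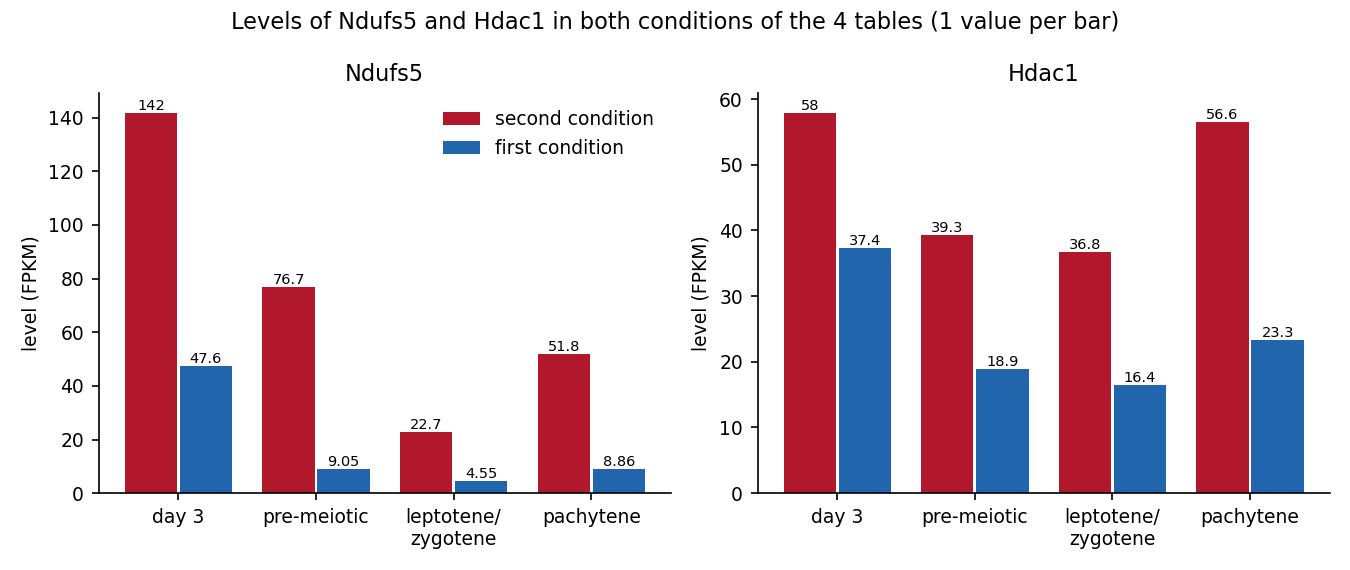
Levels of Ndufs5 and Hdac1 in FPKM (vertical axes, starting at 0) in the second condition (red, left bar) and the first condition (blue, right bar) of the 4 tables along the horizontal axis. Each bar is a single value without an error, and in each of the 8 pairs the second condition is higher. With 0.1 FPKM added to each value, this is from 1.55-fold (Hdac1, day 3) to 8.39-fold (Ndufs5, pre-meiotic table).

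Across the stages the 2 genes had different profiles. Ndufs5 varied 6.26-fold between the highest and lowest table in the second condition and 10.5-fold in the first, whereas Hdac1 varied 1.58-fold in the second condition and 2.28-fold in the first. Ndufs5 was at its highest at day 3 and at its lowest in the leptotene/zygotene table in both conditions. Hdac1 was also lowest in the leptotene/zygotene table in both conditions, and at its highest at day 3 (58.0 FPKM in the second condition) with pachytene next to it (56.6 FPKM). FPKM values per condition carry no error in the tables, so neighbours in these orders cannot be set against a spread. The tables were also normalized separately. Total FPKM in the second condition was 1.35e+06 at day 3, 731242 in the pre-meiotic table and 789420 at pachytene. The levels were not scaled to a common total, so these orders and spreads hold only for FPKM as listed and could differ on equal totals. Per length, Ndufs5 was 2.45 times the level of Hdac1 in the second condition at day 3 and 1.27 times in the first. In the leptotene/zygotene table it was 0.62 times the level of Hdac1 in the second condition and 0.28 times in the first. The log2 ratio of Ndufs5 exceeded that of Hdac1 in each table, by 0.94 (combined implied error 0.29) at day 3, 2.02 (0.49) in the pre-meiotic table, 1.13 (0.67) in the leptotene/zygotene table and 1.26 (0.46) at pachytene.

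Ndufs5 was at least 2-fold higher in the second condition in 4 of 4 tables and Hdac1 in 3 of 4, day 3 being the exception. Among genes with at least 1 FPKM in 1 condition, the share at least 2-fold higher was 3.8% at day 3, 4.21% in the pre-meiotic table, 6.36% in the leptotene/zygotene table and 4.48% at pachytene. The share at least 2-fold lower was 7.78%, 4.49%, 7.39% and 6.17% in the same tables. Since the members were chosen by this contrast, nothing is read from these counts. Ranked from the highest ratio, Ndufs5 stood at place 315 of 17706 at day 3, 251 of 17358 in the pre-meiotic table, 349 of 16161 in the leptotene/zygotene table and 131 of 16154 at pachytene. Hdac1 stood at places 1918, 689, 865 and 488 in the same tables.

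In all, 11906 genes had at least 1 FPKM in 1 condition of every table. Of these, 1099 were higher in the second condition of all 4 tables (9.23%) and 1097 were lower in all 4. Ndufs5 was the only gene of the 11906 that was at least 2-fold higher in every table, and no gene was at least 2-fold lower in every table. A log2 ratio above 0.5 in every table was found for 21 genes, Ndufs5 and Hdac1 included, and one below -0.5 in every table for 16 genes. Without the leptotene/zygotene table, whose markers went against its label, 12686 genes had at least 1 FPKM in 1 condition of the other 3 tables, and 6 of them were at least 2-fold higher in all 3. They are Ndufs5, Cd4, SNORA27, Dcdc2b, Gm16412 and Gm16285, named here after their values were seen. Dcdc2b, a gene of the doublecortin domain family, is also listed near Eif2c4, 3.07 Mb after it, with log2 ratios of 1.74 at day 3, 2.35 in pre-meiotic material and 1.36 at pachytene. The same distance is listed for Iqcc and Ccdc28b, which share a locus. By mean log2 ratio over the 4 tables, Ndufs5 (2.37) was at place 10 and Hdac1 (1.03) at place 116 of 11906.

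Of these 21 genes, 6 lie on chromosome 4 (28.6%), which holds 905 of the 11906 genes (7.60%). Chromosomes 1 and 7 hold 3 of the 21 each. The 6 on chromosome 4 include Ndufs5 and Hdac1, which were chosen for lying near Eif2c4 and for being higher in every table. The share is therefore not independent of that choice. The others of the 6 are Gm12942, Hyi, Id3 and C1qb. Gm12942, which RefSeq lists as Tmem35b, a gene for a predicted membrane protein, is listed at a locus 0.54 Mb after Eif2c4 that it shares with Zmym6. Hyi, a gene for a putative hydroxypyruvate isomerase, lies 8.08 Mb before it with a mean log2 ratio of 2.08. Id3, an inhibitor of transcription factors that bind DNA through basic helix-loop-helix domains, lies 9.49 Mb after it with a mean of 1.23. C1qb, a chain of the complement protein C1q, lies 10.2 Mb after it with a mean of 0.87. Without the leptotene/zygotene table, 54 genes were above 0.5 in the other 3 tables, 8 of them on chromosome 4. Chromosome 6 held 6 of the 54, and chromosomes 7 and 13 held 5 each. The share of chromosome 4 among the 12686 genes of these 3 tables was not computed. These counts were made with the contrast that chose the members and were not tested.

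Within 5 Mb of Eif2c4, 11 of 94 genes were higher in the second condition of all 4 tables, Ndufs5, Hdac1 and Eif2c4 among them, and 10 were lower in all 4. That is 11.7% higher and 10.6% lower, beside 9.23% and 9.21% over all 11906 genes. The median log2 ratio of the 94 genes was 0.11 at day 3 and -0.0037, -0.033 and -0.0028 in the other 3 tables in the order of the stages, beside 0.047, -0.0077, -0.070 and 0.032 over all genes with at least 1 FPKM in that table. The 9 genes higher in all 4 tables other than the pair had mean log2 ratios from 0.20 to 1.11, all below the 2.37 of Ndufs5, and Gm12942 alone of them was above Hdac1. The rule asked only for a ratio above 0 in every table. The genes just inside it were Iqcc, whose lowest log2 ratio was 0.0018, and Mycbp, with 0.0052, and those just outside were Lsm10, with -0.0046, and 2510006D16Rik, with -0.011. The lowest log2 ratios of the members, both at day 3, were 1.57 for Ndufs5 and 0.63 for Hdac1, or 1.20 and 0.26 with both conditions scaled to the same total FPKM.

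**Figure D2:**
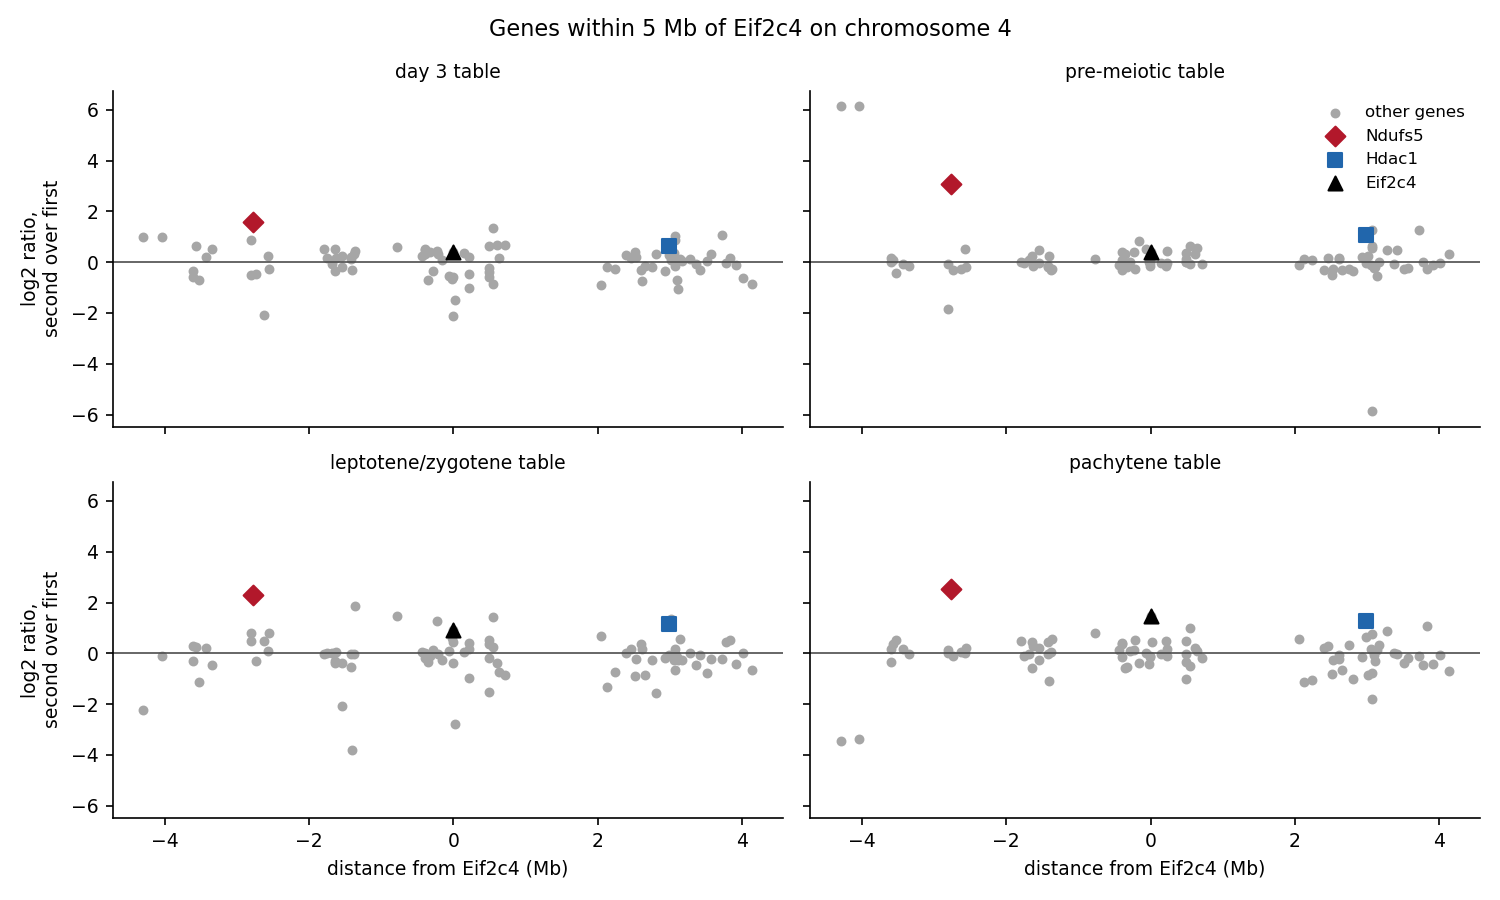
Log2 ratio of the second over the first condition (vertical axis) of the 94 genes within 5 Mb of Eif2c4 against their distance from it in Mb (horizontal axis), 1 panel per table. Ndufs5 (red diamond, -2.77 Mb), Hdac1 (blue square, 2.98 Mb) and Eif2c4 (black triangle, 0 Mb) lie above 0 in all 4 panels, while the other genes (grey) scatter on both sides of 0.

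Eif2c4 itself (ENSMUSG00000042500, chr4:126166785-126210716) had 1.23 FPKM in the second condition and 0.897 FPKM in the first at day 3, and 3.34 FPKM and 2.53 FPKM in the same order in the pre-meiotic table. It had 3.26 FPKM in the second and 1.67 FPKM in the first condition in the leptotene/zygotene table, and 12.1 FPKM in the second and 4.37 FPKM in the first at pachytene. Its log2 ratios were 0.42, 0.39, 0.92 and 1.45 from day 3 to pachytene, with implied errors of 0.36, 0.31, 0.28 and 0.29 from the authors' deposited table. The largest ratio of Eif2c4 was at pachytene, as for Hdac1, whereas that of Ndufs5 was in the pre-meiotic table. These places are not firm for the members. Hdac1 at pachytene exceeded its leptotene/zygotene ratio by 0.11 (combined implied error 0.31). Ndufs5 at pachytene differed from its pre-meiotic ratio by -0.53 (0.60). The Argonaute neighbours of Eif2c4 did not share one direction. Eif2c3 (Ago3), 0.060 Mb before Eif2c4, had log2 ratios from -0.54 to 0.51, and Eif2c1 (Ago1), 0.021 Mb before it, from -0.66 to 0.62. Eif2c2 (Ago2, the Argonaute that cuts its targets) had 1.98 FPKM in the second and 9.61 FPKM in the first condition at day 3, a log2 ratio of -2.22, and log2 ratios between -0.39 and -0.06 in the other 3 tables. The rows of Eif2c3 and Eif2c4 each overlap 2 others, and the kit named in the labels is not said to keep the strand, so reads of overlapping genes cannot be told apart there.

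Other genes of the 5 Mb stretch that were higher in all 4 tables and at least 2-fold in 1 of them were Gm12942, Ftl2, Iqcc and Mtap7d1. Gm12942 is listed at the same locus as Zmym6, and Iqcc at the same locus as Ccdc28b and 2510006D16Rik. Where genes share a listed locus, the position of each gene within it is not given, so its distance is that of the whole locus. Gm12942 had 17.7 FPKM in the second and 7.01 FPKM in the first condition at day 3, and 11.8 FPKM in the second and 5.77 FPKM in the first at pachytene. In the pre-meiotic material it had 10.7 FPKM in the second and 6.80 FPKM in the first condition, and in the leptotene/zygotene material 6.21 FPKM in the second and 2.22 FPKM in the first. Its log2 ratios ran from 0.65 to 1.45. Ftl2 had its largest log2 ratio, 1.48 (implied error 1.12, from the authors' deposited table), in the leptotene/zygotene table, at 4.38 FPKM in the second and 1.51 FPKM in the first condition. Iqcc had its largest, 1.25, in the pre-meiotic table, with 23.6 FPKM in the second and 9.88 FPKM in the first condition. Mtap7d1 had 1.27 in the leptotene/zygotene table, with 3.78 FPKM in the second and 1.51 FPKM in the first condition.

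The genes beside Ndufs5 did not share its ratios. Of the 6 nearest genes with at least 1 FPKM in every table, 3 on each side, none was at least 2-fold higher in the second condition of any table. Akirin1, a gene for a nuclear protein 16.4 kb away, was lower in the second condition of all 4 tables. It had 22.9 FPKM in the second and 31.5 FPKM in the first condition at day 3, 32.9 and 40.2 FPKM in the same order in the pre-meiotic table, 15.9 and 19.7 FPKM in the leptotene/zygotene table and 18.8 and 20.1 FPKM at pachytene. Macf1, which links actin filaments and microtubules, shares with Gm12925 a listed locus that ends 28.3 kb away on the other side. Macf1 had log2 ratios of -0.52, -0.08, 0.81 and 0.01 from day 3 to pachytene. Mycbp, whose protein binds MYC, was higher in the second condition of all 4 tables, with log2 ratios of 0.25, 0.52, 0.08 and 0.01, each at most 1.55 times its implied error. Ppie, a peptidyl-prolyl isomerase, had log2 ratios between -0.45 and 0.53. Gm12925 and Gm12904, named only by number, gave the 2 values past 2-fold on the lower side, -1.85 in pre-meiotic material for Gm12925 and -2.09 at day 3 for Gm12904, both at levels under 2 FPKM in each condition. Over the 24 values of these 6 genes the median log2 ratio was -0.0028.

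The 6 genes taken beside Hdac1, 3 on each side, did not share its ratios in all 4 tables either. The closest, Marcksl1, a gene for an actin-binding protein of the MARCKS family, ends 0.118 kb from the Hdac1 locus. It had 266 FPKM in the second and 222 FPKM in the first condition at day 3, 296 and 302 FPKM in the same order in the pre-meiotic table, 9.34 and 9.66 FPKM in the leptotene/zygotene table and 16.7 and 10.6 FPKM at pachytene. Its conditions were thus 1.20-fold apart at day 3 and 1.57-fold apart at pachytene, and close to equal in the other 2 tables. Lck, the tyrosine kinase of T cells, lies 5.63 kb away on the other side, with log2 ratios between -0.86 and 1.35 at levels under 4 FPKM. Eif3i, a subunit of a translation initiation factor, had log2 ratios between -0.26 and 0.36, and Bsdc1 between -0.33 and 0.19. Ccdc28b was 1.02 at day 3 and 0.62 in the pre-meiotic table, but -0.67 and -0.77 in the leptotene/zygotene and pachytene tables. It shares its listed locus, and so its distance, with Iqcc, 2510006D16Rik and Gm12965, and was taken as the first by gene ID. From day 3 to pachytene Iqcc was at 0.87, 1.25, 0.0018 and 0.14, and Gm12965 was lower in all 4 tables. 2510006D16Rik ran from -0.011 to 0.78. Dcdc2b, listed at the same distance from Eif2c4, was at 1.74 at day 3, 2.35 in the pre-meiotic table and 1.36 at pachytene. Zbtb8os ran the other way from Hdac1 at the later stages, with 5.89 FPKM in the second and 17.4 FPKM in the first condition in the leptotene/zygotene table and 15.4 and 31.0 FPKM in the same order at pachytene. Of the 24 values of the 6 genes taken, 2 were at least 2-fold higher and 2 at least 2-fold lower in the second condition. Their median log2 ratio was -0.039. Between the loci of Ndufs5 and Hdac1 lie 61 genes with at least 1 FPKM in every table.

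**Figure D3:**
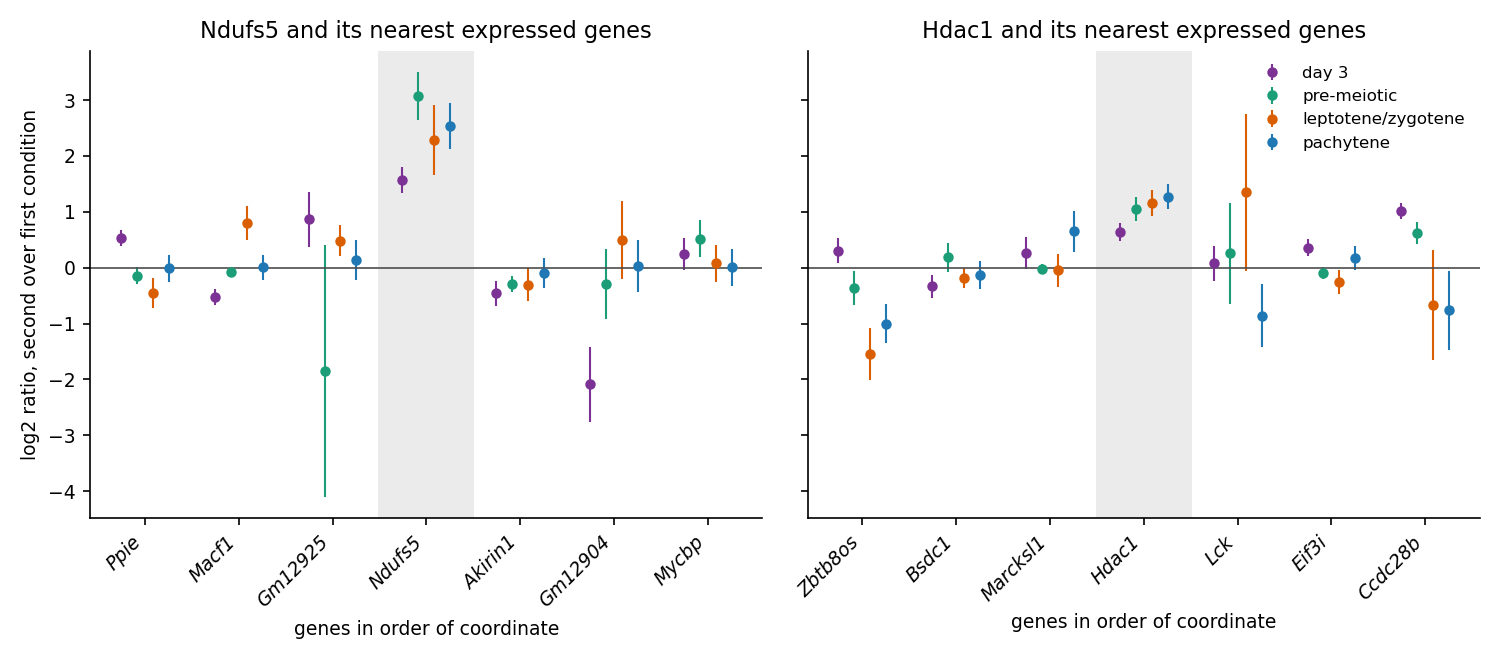
Log2 ratio of the second over the first condition (vertical axis) of Ndufs5 (left) and Hdac1 (right), shaded, and the 3 nearest expressed genes on each side in order of coordinate, with 1 point per table in the colours of the legend. Bars are the implied error, and the 4 points of Ndufs5 (1.57 to 3.07) lie above every point of its neighbours, the highest of which is 0.86.

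Ndufs5 was set beside the others in a fixed list of 37 symbols of nuclear complex I genes, itself included. All 37 were found, on 38 rows because Ndufb8 has 2. At day 3 all 38 rows were higher in the second condition, with a median log2 ratio of 0.58 for the 37 rows other than Ndufs5, beside 0.05 over all genes. Total FPKM at day 3 was larger in the second condition by 0.37 on the log2 scale, and the rows were not scaled to equal totals. Rows such as Ndufs1 (0.026) and Ndufa9 (0.19) lay below that 0.37, so the count of 38 holds only for FPKM as listed. The same limit applies to the day 3 counts of the lists below. In pre-meiotic material 17 of 36 other rows with at least 1 FPKM were higher, with a median of -0.035, and in the leptotene/zygotene material 10 of 37, with a median of -0.096. At pachytene 34 of 36 were higher, with a median of 0.18. Over all genes the medians were -0.0077, -0.070 and 0.032 from the pre-meiotic to the pachytene table. The share of all genes above 0 was not computed. Ndufs5 thus lay above the median of the other subunits by 0.997 at day 3, 3.10 in the pre-meiotic table, 2.39 in the leptotene/zygotene table and 2.36 at pachytene. By the mean over tables it stood first (2.37), followed by Ndufab1, the mitochondrial acyl carrier protein (0.54).

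By level, Ndufs5 was near the middle of the complex I genes in the second condition and near the bottom in the first. Ranked from the highest FPKM among 38 rows, it stood at place 18 in the second condition and 31 in the first at day 3, and at 15 and 37 in the same order in the pre-meiotic table. The places were 24 and 35 in the leptotene/zygotene table and 22 and 35 at pachytene. Its level was 1.12, 1.38, 0.66 and 0.93 times the median of the list in the second condition from day 3 to pachytene, and 0.55, 0.15, 0.14 and 0.20 times the median in the first. The highest mean level in the list was that of Ndufb8, at 276 FPKM (mean log2 ratio -0.061).

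Only a few other complex I rows passed 2-fold. Ndufc1, an accessory subunit, had 155 FPKM in the second and 77.1 FPKM in the first condition at day 3, a log2 ratio of 1.01, and between -0.31 and 0.28 in the other tables. Ndufab1 had 11.2 FPKM in the second and 5.15 FPKM in the first condition in the leptotene/zygotene table, a log2 ratio of 1.11, and between 0.23 and 0.46 in the other tables. The second row of Ndufb8 (ENSMUSG00000091471) had 23.9 FPKM in the second and 3.29 FPKM in the first condition at day 3, and was listed at 0 in the second and at 7.06 FPKM in the first condition in the leptotene/zygotene table. In the other 2 tables it was listed at 0 in both conditions. Of the 13 assembly factors of complex I, proteins that help build the enzyme without staying in it, 12 were higher at day 3 (median 0.28), 5 in the pre-meiotic table (median -0.15), 5 in the leptotene/zygotene table (median -0.25) and 9 at pachytene (median 0.064). Among them, Ndufaf6, listed as 2310030N02Rik, passed 2-fold at pachytene, with 3.07 FPKM in the second and 0.438 FPKM in the first condition.

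**Figure D4:**
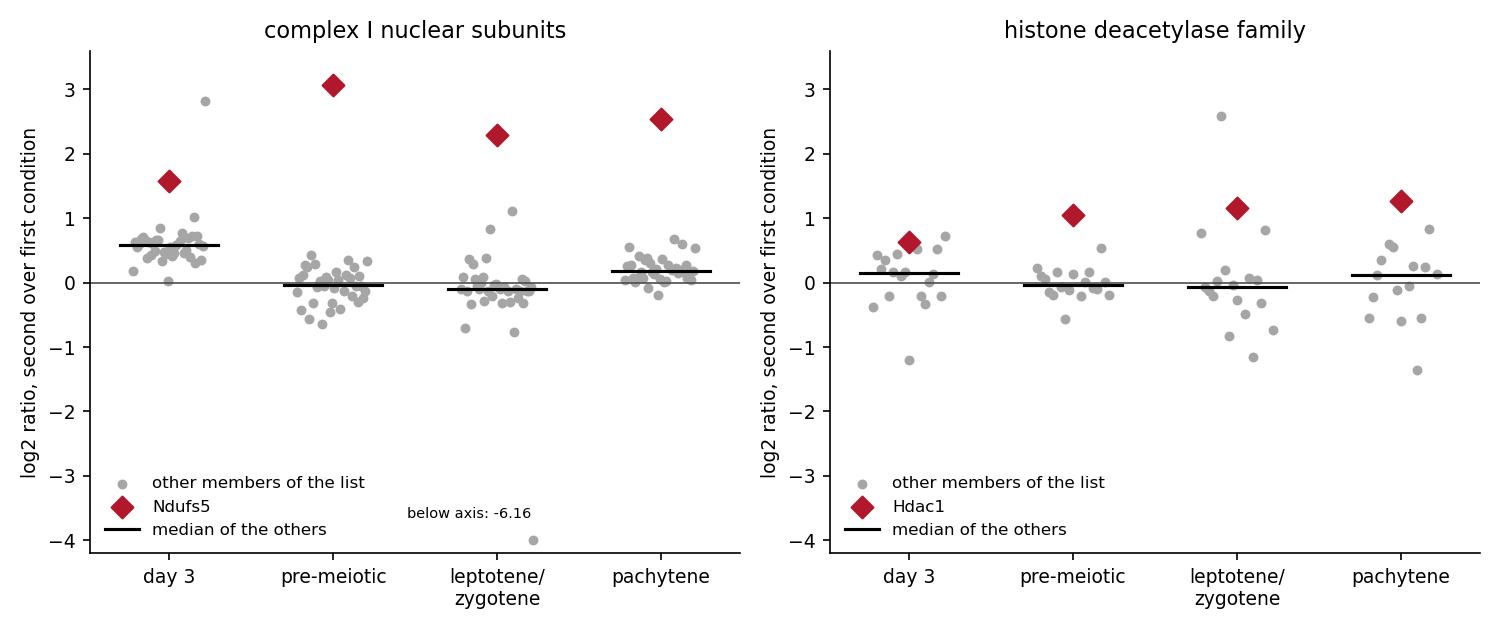
Log2 ratio of the second over the first condition (vertical axes) in the 4 tables (horizontal axes) for nuclear complex I subunits (left) and the histone deacetylase family (right), rows with at least 1 FPKM in that table. Red diamonds are Ndufs5 (left) and Hdac1 (right), grey points the other rows and black lines their medians. One Ndufb8 row in the leptotene/zygotene table lies below the axis, at -6.16. Ndufs5 is the highest point in 3 tables, the second Ndufb8 row (2.82) being higher at day 3.

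Hdac1 was set beside the other deacetylases in a list of 18 symbols of the classical HDAC and sirtuin families, itself included. The list took 19 rows because Hdac4 has 2. Without Hdac1, 12 of 18 rows with at least 1 FPKM were higher in the second condition at day 3, 9 of 18 in the pre-meiotic table, 7 of 17 in the leptotene/zygotene table and 8 of 15 at pachytene. Their median log2 ratios were 0.15, -0.034, -0.064 and 0.12, and Hdac1 lay above these by 0.48, 1.08, 1.22 and 1.15. By mean log2 ratio over the tables the highest were Hdac7, a class IIa deacetylase, at 1.04, Hdac1 at 1.03 and Hdac10, a polyamine deacetylase, at 0.67. Hdac10, on chromosome 15, had log2 ratios of 0.52, 0.53, 0.81 and 0.83 from day 3 to pachytene. It was thus, like Hdac1, among the genes above 0.5 in every table. The value of Hdac7 rests on low levels, 1.31 FPKM in the second and 0.134 FPKM in the first condition in the leptotene/zygotene table and 0.907 and 0.324 FPKM in the same order at pachytene, with log2 ratios of 0.17 at day 3 and 0.16 in the pre-meiotic table. Hdac11, the class IV enzyme, went the other way at the later stages, with 21.7 FPKM in the second and 48.3 FPKM in the first condition in the leptotene/zygotene table and 7.84 and 20.2 FPKM in the same order at pachytene. The 2 rows of Hdac4, a class IIa enzyme, went opposite ways at day 3. One (ENSMUSG00000026313) had 3.61 FPKM in the second and 8.44 FPKM in the first condition, a log2 ratio of -1.20, and the other (ENSMUSG00000073617) had 11.8 FPKM in the second and 7.13 FPKM in the first, a log2 ratio of 0.72, above that of Hdac1. The lowest mean level in the family was that of Hdac9, at 2.54 FPKM.

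Hdac2, the partner of Hdac1, had the highest mean level of the family (106 FPKM) and did not follow Hdac1. It had 202 FPKM in the second and 159 FPKM in the first condition at day 3, 180 and 200 FPKM in the same order in the pre-meiotic table, 22.5 and 26.0 FPKM in the leptotene/zygotene table and 32.3 and 29.7 FPKM at pachytene. Its log2 ratios were 0.35, -0.15, -0.21 and 0.12 from day 3 to pachytene. Per length, Hdac1 was 0.29 times the level of Hdac2 in the second condition at day 3 and 0.24 times in the first, and 0.22 and 0.095 times in the same order in the pre-meiotic table. In the leptotene/zygotene table Hdac1 was 1.64 times the level of Hdac2 in the second condition and 0.63 times in the first, and at pachytene 1.75 times in the second and 0.78 times in the first. In the last 2 tables Hdac1 was therefore above Hdac2 in the second condition and below it in the first.

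A processed copy of Hdac1, the pseudogene Hdac1-ps, is listed as Gm10093 at chr17:78890905-78892881. It had 47.0 FPKM in the second and 47.4 FPKM in the first condition at day 3, 61.1 and 67.3 FPKM in the same order in the pre-meiotic table, 86.2 and 85.8 FPKM in the leptotene/zygotene table and 115 and 102 FPKM at pachytene. Its conditions were thus close in each table, with log2 ratios from -0.14 to 0.18. The copy was listed at the higher level in every condition except the second condition at day 3, where Hdac1 was at 123% of it. How the authors' counting shared reads between the gene and its copy is stated in none of the sources used here, so the levels and ratios of Hdac1 are uncertain to that extent. RefSeq also lists Ndufs5-ps, a transcribed pseudogene of Ndufs5 on chromosome 16, and no row of the tables carries that name.

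**Figure D5:**
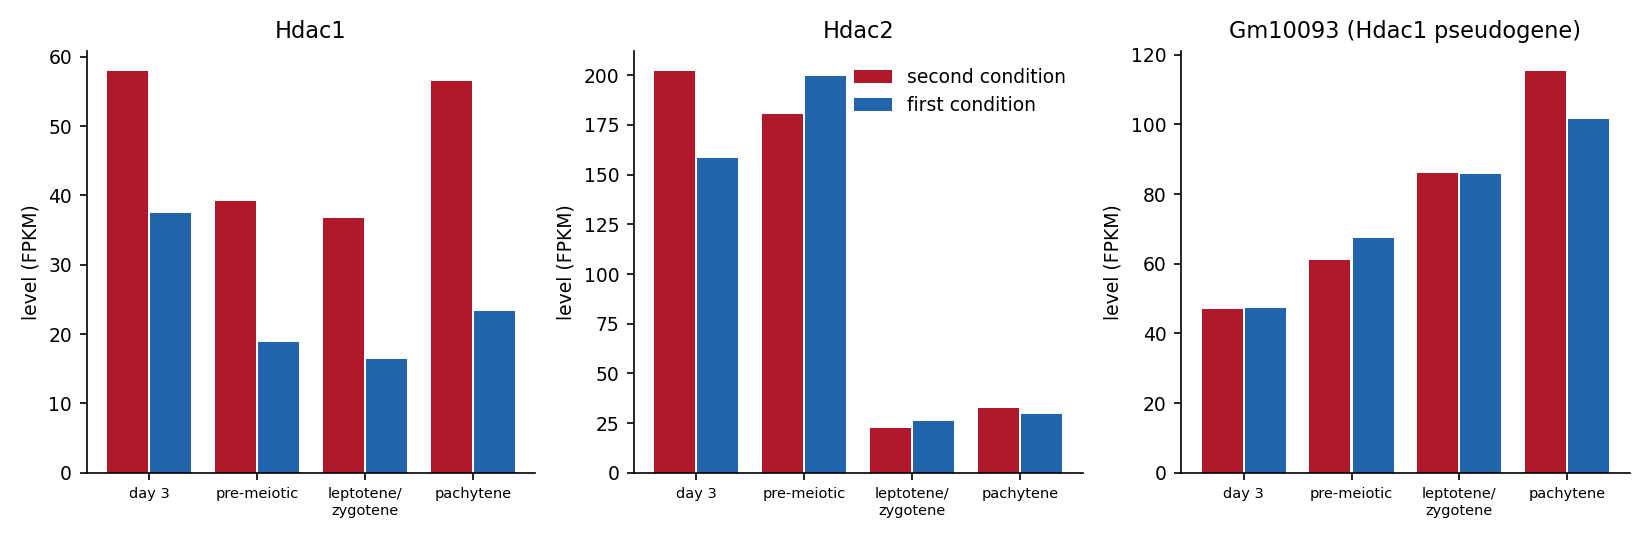
Levels in FPKM (vertical axes, each starting at 0 with its own scale) of Hdac1, Hdac2 and the Hdac1 pseudogene Gm10093 in the second condition (red, left bar) and the first condition (blue, right bar) of the 4 tables, 1 value per bar. The Hdac1 bars differ 1.55-fold to 2.42-fold with 0.1 FPKM added to each value. The pseudogene stands at 47.0 FPKM at day 3 and 115 FPKM at pachytene in the second condition, with the first condition close beside it.

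The 32 partner genes of the SIN3, NuRD, CoREST and related complexes were all found, on 33 rows. At least 1 FPKM in 1 condition was reached by 32 rows in each table, and 31 rows did so in all 4 tables. The number higher in the second condition was 16 at day 3, 13 in the pre-meiotic table, 10 in the leptotene/zygotene table and 17 at pachytene. Their medians were -0.062, -0.046, -0.13 and 0.031. Of the 32 rows at day 3, 3 were at least 2-fold lower, beside 7.78% of all genes with at least 1 FPKM, so nothing is read from this count. Sin3a, the scaffold of SIN3, was at -1.09. Gatad2b of NuRD had 8.06 FPKM in the second and 32.0 FPKM in the first condition. Phf21a of the CoREST complex had 45.9 FPKM in the second and 103 FPKM in the first. Rcor2, a CoREST scaffold, had 0.906 FPKM in the second and 2.25 FPKM in the first condition in the leptotene/zygotene table. A row of Mier2 (ENSMUSG00000091854) had 4.33 FPKM in the second condition and was listed at 0 in the first at day 3, and was listed at 0 in both conditions of the other tables.

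The genes most like each member were sought by the distance between their 4 log2 ratios, over 4 tables and 11906 genes. For Ndufs5 the nearest were Cebpd (Euclidean distance 2.28), Rgs4 (2.41) and Lect1 (2.46), none of them close. Cebpd, a transcription factor, had log2 ratios of 0.85, 1.28, 2.35 and 1.33 from day 3 to pachytene. Rgs4, a regulator of G protein signalling, ranged between 0.20 at day 3 and 2.41 in the leptotene/zygotene table, and Lect1, the gene of chondromodulin, had 1.13, 2.04, 0.81 and 0.93. In the first condition of the leptotene/zygotene and pachytene tables, Cebpd was at 0.561 and 0.838 FPKM and Rgs4 at 0.618 and 0.298 FPKM. The leptotene/zygotene ratio of Lect1 was below its implied error of 1.22. These matches too rest in part on low levels. For Hdac1 the nearest were Sox7, an endothelial transcription factor (0.635), C1qb (0.637) and Gm16238 (0.639). Sox7 was at most at 1.52 FPKM in the tables after day 3. Gm16238 was at most at 1.05 FPKM in the leptotene/zygotene and pachytene tables. Its log2 ratios there, 1.08 and 1.05, were below their implied errors of 1.84 and 1.07. The likeness of these 2 genes thus rests in part on low levels. C1qb had 22.4 FPKM in the second and 12.8 FPKM in the first condition at day 3, and 12.7 and 7.33 FPKM in the same order in the pre-meiotic table. It had 17.8 FPKM in the second and 7.85 FPKM in the first condition in the leptotene/zygotene table, and 3.12 and 1.85 FPKM in the same order at pachytene.

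Markers of other cells moved with the ratios in some tables. The 6 markers of peritubular myoid cells and stroma summed to 3315 FPKM in the second and 4550 FPKM in the first condition at day 3, and to 1757 and 1449 FPKM in the same order in the pre-meiotic table. They summed to 42.5 FPKM in the second and 11.6 FPKM in the first condition in the leptotene/zygotene table and to 26.9 and 8.52 FPKM in the same order at pachytene, and all 6 were at least 2-fold higher in both of these tables. The 6 endothelial markers were 0.89, 1.17, 3.14 and 3.07 times as high in the second as in the first condition from day 3 to pachytene, by their sum. For the 6 erythrocyte markers the same ratio was 1.22, 1.59, 8.50 and 2.63, and for the 5 macrophage markers found it was 1.46, 1.70, 3.71 and 7.03. The last of these rests on H2-Ab1, a class II histocompatibility gene, with 43.5 FPKM in the second and 3.35 FPKM in the first condition at pachytene. Without it the 4 other macrophage markers gave ratios of 1.54, 1.77, 2.01 and 1.28 from day 3 to pachytene. Of the markers of these 4 lists, Cd68 alone was at 0, in the first condition of the leptotene/zygotene table. In the pre-meiotic table the sums of these 4 lists were 1.17 to 1.70 times as high in the second condition. Ndufs5 was 8.39-fold and Hdac1 2.07-fold higher there. At day 3 the stroma and endothelium sums were lower in the second condition, and the macrophage (1.46) and erythrocyte (1.22) sums were higher. Ndufs5 was 2.98-fold and Hdac1 1.55-fold higher at day 3. The part of these cells in the ratios of Ndufs5 and Hdac1 was not tested.

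Markers of germ cells and of the supporting cells of the tubules were set beside these. The 6 spermatogonial markers summed to 92.1 FPKM in the second and 124 FPKM in the first condition at day 3, and to 317 and 353 FPKM in the same order in the pre-meiotic table. In the pre-meiotic table the leptotene/zygotene markers summed to 126 FPKM in the second and 217 FPKM in the first condition. The pachytene markers summed to 7142 FPKM in the second and 7157 FPKM in the first condition at pachytene. The Sertoli markers summed to 1548 FPKM in the second and 1250 FPKM in the first condition at day 3 and to 847 and 813 FPKM in the same order in the pre-meiotic table. They summed to 15.9 FPKM in the second and 24.5 FPKM in the first condition in the leptotene/zygotene table, where Amh was at 0 in the second condition, and to 43.0 and 35.2 FPKM in the same order at pachytene. The Leydig markers were 0.93, 1.01, 1.04 and 0.85 times as high in the second as in the first condition from day 3 to pachytene, by their sum, with Lhcgr at 0 in the second condition at pachytene. Sertoli and Leydig markers were thus not higher in the second condition of every table.

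The sum of FPKM over all genes was larger in the second condition at day 3, by 0.37 on the log2 scale, and within 0.07 of equal in the other tables. Hdac1 at day 3, whose log2 ratio is 0.26 when both conditions are scaled to the same total, moved by more than its implied error of 0.16.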

How the data were processed

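Gene expression was measured by RNA sequencing, and the analysis started from the 4 tables of gene comparisons that the authors deposited. The authors used Cuffdiff with Cufflinks 1.1.0, Bowtie 0.12.7 and TopHat 1.3.0, per the submitters' processing notes, and no source used here names the genome build. The authors deposited, per the file headers, an FPKM value for each condition. Per the file headers the deposited log2 fold and test statistic are scores that the authors made from the same pair of conditions, and they were used only for the implied error and as an alternative ratio. The p-values and q-values of the tables were not used, since the rule that chose the members used the same contrast.

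From the FPKM values, log2 ratios and folds of single genes, second over first condition, were computed with a pseudocount of 0.1 FPKM. It understates the change of low genes. Counts over genes used rows with at least 1 FPKM in 1 condition, and 2-fold as the threshold. Implied errors had medians of 0.31 at day 3, 0.25 in the pre-meiotic table, 0.41 in the leptotene/zygotene table and 0.46 at pachytene. Coordinates are those of the tables, counted from 1. The members and the gene lists were chosen with earlier results of these data known, so no count of theirs is independent support. Named genes were the members, the Argonautes beside Eif2c4, the 3 nearest expressed genes on each side, genes of the 5 Mb stretch higher in all 4 tables and past 2-fold in 1, the 3 most alike genes per member, up to 4 list members past 2-fold, and the highest and lowest mean level of the complex I and deacetylase lists. Sin3a, Hdac10, H2-Ab1, the Hdac1 pseudogene, the second Hdac4 row, the genes at least 2-fold higher in 3 tables and the chromosome 4 genes above 0.5 in every table were named after their values were seen. Zmym6 was named only because it shares a listed locus with Gm12942, and Gm12965 only because it shares one with Ccdc28b. List members were found by table symbol or through the name table, where 31840 of 36806 gene IDs had an entry. Only Adgre1 was not found under its current name, and its older symbol Emr1 was. Promoter sequence is from RefSeq. No test was made, because each condition has 1 value. The ratio and the 2-fold count were checked only as arithmetic, on simulated data without noise in which known changes had to come back. That check does not measure how often noise alone passes 2-fold. Python 3.11.15, pandas 2.3.3, NumPy 2.4.6 and Matplotlib 3.10.9 were used.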

Additional observations from a re-analysis of the deposited data

Results flagged for a closer look

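The second row of Ndufb8, a complex I subunit, changed direction between tables. Its log2 ratio was 2.82 at day 3 and -6.16 in the leptotene/zygotene table, where the second condition is listed at 0. The difference was not tested.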

How the results depend on the processing

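Depth is unknown and each condition has 1 value, so precision is known only through the implied error. All 40 alternative values of the 8 member ratios stayed above 0, and 38 of them lay within the implied error of the value reported. The other 2 came from scaling both conditions to the same total FPKM at day 3, which gave 1.20 for Ndufs5 and 0.26 for Hdac1. The remaining alternatives were pseudocounts of 0.01 and 1 FPKM, subtraction of the table median and the authors' deposited log2 fold. A pseudocount cannot reverse a ratio, and the deposited log2 fold is the ratio of the same FPKM values without one. For these alternatives a value above 0 was fixed in advance. Only the scaling to the same total and the subtraction of the median could have changed the sign. The 11 genes near Eif2c4 that were higher in all 4 tables became 22 with no minimum FPKM, 3 with a log2 ratio above 0.5, 4 within 2 Mb and 27 within 10 Mb. The 1099 genes of the whole table became 1662 with no minimum, 647 with at least 5 FPKM and 21 above 0.5. Genes past 2-fold in either direction numbered, from day 3 to pachytene, 3499, 3858, 5079 and 4143 with no minimum FPKM, and 5449, 2864, 4280 and 3764 past 1.5-fold. With a pseudocount of 1 FPKM they numbered 887, 1232 and 953 from the pre-meiotic to the pachytene table. Without the leptotene/zygotene table, an alternative added after the data were seen, 22 genes near Eif2c4 and 2252 in the whole table were higher in the other 3 tables. The 1.5-fold threshold, the minimum FPKM, the number of tables and the width of the stretch change which genes are counted by their own construction. No paired analysis was possible because the columns of the tables are tied to no genotype and carry no replicate number.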
